A study of Mus musculus with 10 samples.

Results

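Cyclin-dependent kinase inhibitor genes encode the proteins that hold the cell cycle back by blocking cyclin-dependent kinases. The 7 genes described here were chosen by name, as the Cip/Kip genes Cdkn1a, Cdkn1b and Cdkn1c and the INK4 genes Cdkn2a, Cdkn2b, Cdkn2c and Cdkn2d, among 22367 protein-coding genes of the GENCODE vM1 annotation on mm9. Each gene was taken as its gene body plus 5 kb on each side, and the sites that shared at least 1 base with that window were counted as sites of the gene.

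The sites come from ChIP-seq in mouse embryonic stem cells (ESCs), with 6 ChIP libraries and 4 input libraries. Suz12 and H3K27me3 were mapped in Suz12 Suz12TAP/+ ESCs of the BayGenomics gene trap line XG122, in which 1 Suz12 allele had been reverted and then tagged at the endogenous locus with a 6xHis-3xFlag TAP tag, and which expressed either scramble shRNA or Pcl3 shRNA. Pcl3 was mapped as Pcl3-TAP in E14 ESCs, in 1 population carrying Pcl3-shRNA7 and 1 carrying Pcl3-shRNA6, both directed at the wild-type Pcl3. The Suz12 and Pcl3 cells were therefore different lines, and the Pcl3 protein mapped was the tagged one. Both tagged proteins were precipitated with anti-FlagM2 (Sigma) and the histone mark with anti-H3K27me3 (Upstate). Each condition had 1 library, except Pcl3-TAP and its input with 2 each and 1 list between them, so no value below has a replicate error and no test over samples exists. The shRNA-expressing cells were clones picked after lentiviral selection, and how many clones a library came from is not stated. The lists hold no expression values, so the ESC identity of the cells could not be checked against marker genes.

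The Cip/Kip proteins p21 (Cdkn1a), p27 (Cdkn1b) and p57 (Cdkn1c) bind cyclin-Cdk complexes of several kinds, whereas the INK4 proteins p16 (Cdkn2a), p15 (Cdkn2b), p18 (Cdkn2c) and p19 (Cdkn2d) bind Cdk4 and Cdk6 and keep the D cyclins from activating them. Cdkn2a also encodes p19Arf, a stabilizer of p53, from a separate upstream start, and Cdkn2a and Cdkn2b are a textbook target of Polycomb repression in proliferating cells. Polycomb Repressive Complex 2 (PRC2) methylates histone H3 at lysine 27, Suz12 is a core subunit of it, and Pcl3 (Phf19) is an accessory subunit.

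The 4 lists answer different questions. The Suz12 list of 8876 sites gives where Suz12-TAP exceeded input in scramble ESCs, and the Pcl3 list of 5242 sites gives where Pcl3-TAP exceeded input. The Suz12-depleted list of 5722 sites gives where Suz12-TAP was lower with Pcl3 shRNA than with scramble shRNA, and the H3K27me3-depleted list of 678 sites gives the same for the histone mark. The only value of a site is the authors' p-value from the Skellam distribution, which describes the difference of 2 Poisson counts. Each of the 5722 Suz12-depleted sites repeats the position and p-value of a Suz12 binding site, so this p-value measures binding against input and the size of the loss is not known. Read counts per site and the depth behind a site are not given in the lists, and a p-value too small for the number format is written as 0.

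The sequences just before the annotated starts are shown because PRC2 sites lie at CpG-rich sequence, and because the inhibitor genes differ in this respect at starts that were under a Suz12 site and at starts that were not. Each run is the 150 bases before a start in mm9, 5′ to 3′ along the gene, read from the reference genome, with every CpG in capitals.
Cdkn1a, outermost start, chr17:29227774-29227923 (+ strand): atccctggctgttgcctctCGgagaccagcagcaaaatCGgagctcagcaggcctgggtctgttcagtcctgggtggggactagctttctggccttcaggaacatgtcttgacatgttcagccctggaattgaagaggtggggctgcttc
Cdkn1a, second start, chr17:29230567-29230716 (+ strand): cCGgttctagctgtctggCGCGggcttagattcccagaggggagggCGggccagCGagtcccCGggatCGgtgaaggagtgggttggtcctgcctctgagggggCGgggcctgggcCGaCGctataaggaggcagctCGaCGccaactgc
Cdkn1b, chr6:134870269-134870418 (+ strand): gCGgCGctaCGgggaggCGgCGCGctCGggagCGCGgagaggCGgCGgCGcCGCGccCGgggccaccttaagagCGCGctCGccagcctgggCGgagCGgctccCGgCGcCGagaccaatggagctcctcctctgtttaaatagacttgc
Cdkn2a, upstream p19Arf start, chr4:88940558-88940707 (- strand): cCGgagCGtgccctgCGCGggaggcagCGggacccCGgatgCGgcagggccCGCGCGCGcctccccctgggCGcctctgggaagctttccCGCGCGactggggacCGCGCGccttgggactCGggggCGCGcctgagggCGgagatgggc
Cdkn2a, downstream p16 start, chr4:88928097-88928246 (- strand): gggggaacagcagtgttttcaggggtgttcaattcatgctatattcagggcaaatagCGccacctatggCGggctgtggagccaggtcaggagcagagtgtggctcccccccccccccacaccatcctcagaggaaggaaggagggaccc
Cdkn2b, chr4:88956942-88957091 (- strand): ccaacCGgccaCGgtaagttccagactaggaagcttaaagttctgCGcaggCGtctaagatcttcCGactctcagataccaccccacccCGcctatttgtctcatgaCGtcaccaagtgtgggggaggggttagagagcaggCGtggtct
Cdkn2c, outermost start, chr4:109339795-109339944 (- strand): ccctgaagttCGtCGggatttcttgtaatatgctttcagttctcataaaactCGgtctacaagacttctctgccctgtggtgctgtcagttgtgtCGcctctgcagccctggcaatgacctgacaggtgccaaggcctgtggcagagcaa
Cdkn2d, chr9:21095654-21095803 (- strand): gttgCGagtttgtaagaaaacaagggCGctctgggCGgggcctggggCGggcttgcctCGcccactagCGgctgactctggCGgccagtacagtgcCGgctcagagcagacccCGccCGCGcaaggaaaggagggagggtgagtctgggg

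These runs hold 2 CpG before the outermost Cdkn1a start and 12 before its second start. They hold 23 at Cdkn1b, 22 at the p19Arf start, 2 at the p16 start, 8 at Cdkn2b, 4 at Cdkn2c and 11 at Cdkn2d. In these runs the p16 start is as CpG-poor as the outermost Cdkn1a start, and only the former was under a Suz12 site. Over 1000 bp around each start the 2 differed, with 3.70 CpG per 100 bp at the p16 start and 0.700 at the Cdkn1a start.

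To learn which inhibitor genes PRC2 occupies in ESCs, the 7 windows were compared with the Suz12 list. Suz12 sites were found at 6 of the 7 genes, all but Cdkn2d, whereas 28.8% of all protein-coding genes had one. Together these 6 genes held 16 Suz12 sites, 6 at the Cip/Kip genes and 10 at the INK4 genes. An annotated start lay under a Suz12 site at the same 6 of 7 genes, compared with 21.1% of all protein-coding genes. Of the 16 sites, 7 covered a start of an inhibitor gene and 9 did not.

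**Figure D1:**
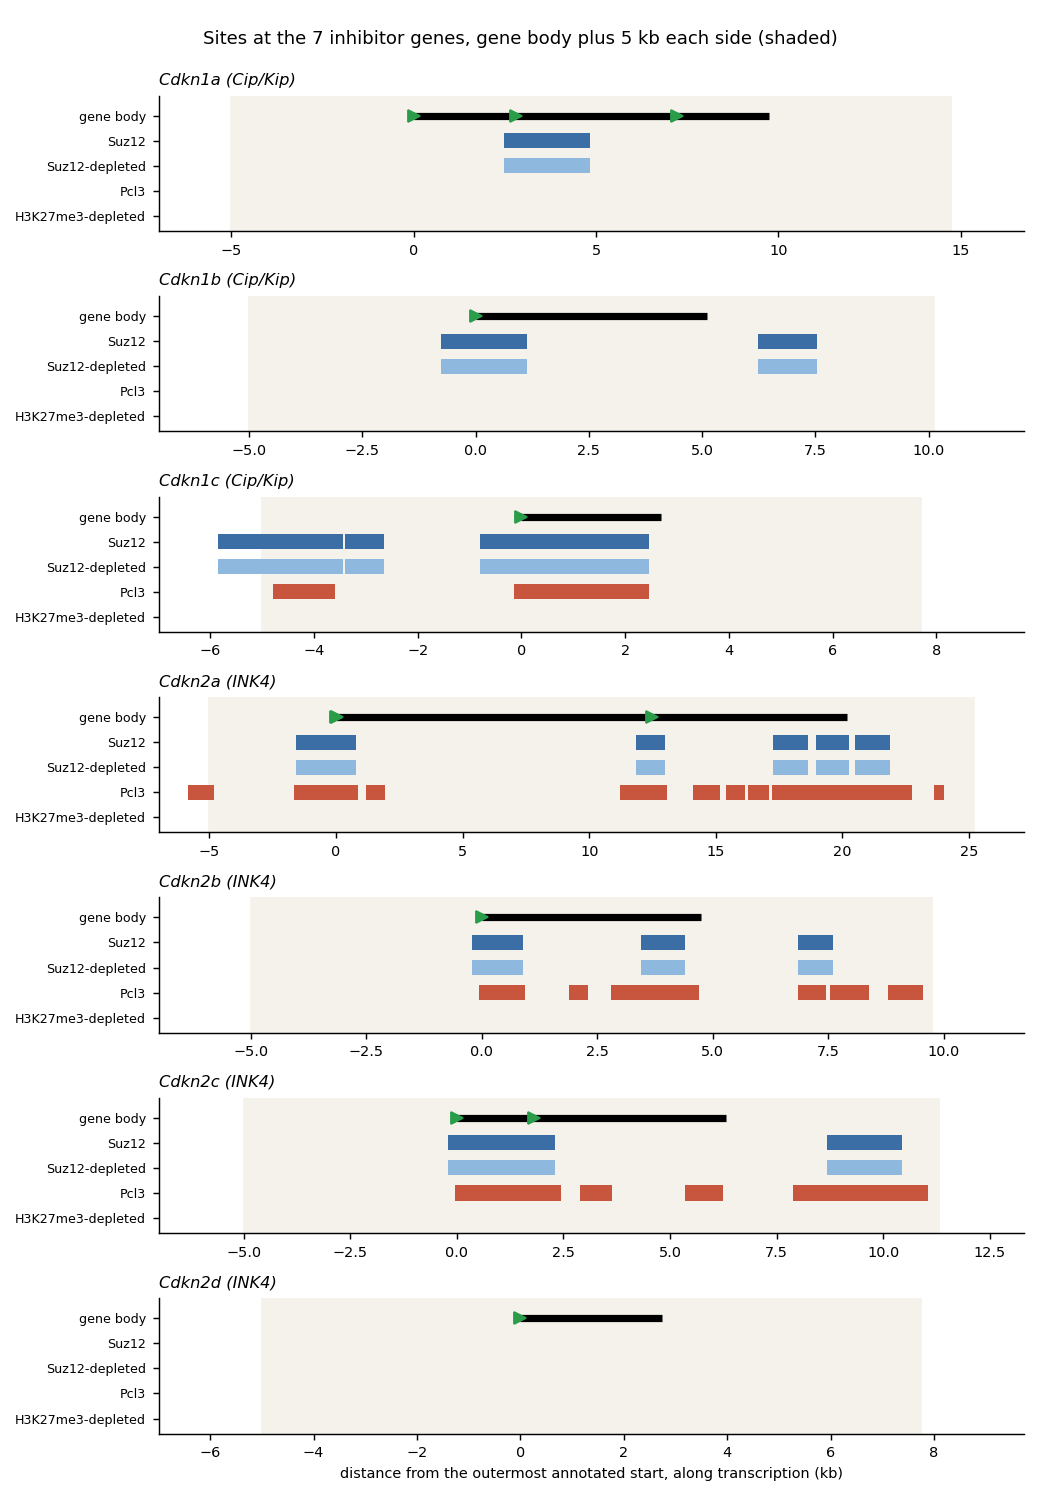
Sites of the 4 lists at each inhibitor gene, drawn by distance in kb from the outermost annotated start along the direction of transcription, each panel on its own x scale; black bars are gene bodies, green arrowheads annotated starts, and colored bars sites. Every Suz12 bar has a Suz12-depleted bar under it, Pcl3 bars appear at Cdkn1c, Cdkn2a, Cdkn2b and Cdkn2c, the H3K27me3-depleted row is empty at all 7 genes, and Cdkn2d has no bar.

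Among the Cip/Kip genes, Cdkn1c, an imprinted gene whose product p57 restrains growth, had the Suz12 site of smallest p-value. Its site over the start (chr7:150644501-150647750) was 3250 bp wide with a p-value written as 0, shared by 435 of all Suz12 sites. The other 2 sites lay upstream of the start, with centers at -3020 bp and -4645 bp relative to it and p-values of 2.677e-14 and 1.251e-82. Suz12 sites thus covered 5555 bp, or 43.7%, of the Cdkn1c window, the largest share among the 7 genes. Its window of 12701 bp was also the shortest, and Cdkn2a had more covered bases, 7600 bp, in a window of 30181 bp.

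Cdkn1a, whose product p21 is the main p53-induced inhibitor, had a single Suz12 site. This site (chr17:29230401-29232750) was 2350 bp wide with a p-value of 2.481e-69, and 73.2% of all Suz12 sites were weaker. It covered the second annotated start, at position 29230717, and its near edge was 2477 bp from the outermost start. The Cdkn1a site therefore belonged to the CpG-richer of the 2 Cdkn1a starts shown above.

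Cdkn1b, which encodes p27, had 2 Suz12 sites of middling strength. The site over the start (chr6:134869651-134871550) had a p-value of 5.346e-40, and 60.4% of all Suz12 sites were weaker. The other (chr6:134876651-134877950) had a p-value of 8.298e-33 and was centered 6881 bp beyond the start, downstream of the gene body. No other annotated gene starts in the windows of the 3 Cip/Kip genes.

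Among the INK4 genes, Cdkn2a had 5 Suz12 sites, and 2.31% of the protein-coding genes with a Suz12 site had that many or more (1 of the 6 inhibitor genes). The strongest (chr4:88939751-88942150) lay over the upstream p19Arf start and had a p-value of 5.689e-198. The site over the downstream p16 start (chr4:88927551-88928700) was narrower, at 1150 bp against 2400 bp, and had a p-value of 5.413e-45. Both Cdkn2a promoters were therefore under Suz12 sites, the p19Arf start under the one with the smaller p-value. The other 3 sites lay at the far end of the gene, between positions 88918701 and 88923300, with p-values of 3.509e-60, 1.718e-67 and 1.969e-108. The outermost of these covered the start of Gm12606, a processed transcript on the same strand, so that it cannot be assigned to Cdkn2a alone.

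Cdkn2b, whose product p15 is known as an inhibitor induced by TGF-β, had 3 Suz12 sites. The site over the start (chr4:88956051-88957150) had a p-value of 1.566e-38, a site at the coding exon near the far end of the gene had 1.330e-31, and a site downstream had 3.908e-14. None of the 3 Cdkn2b sites had a p-value as small as the weakest of the 5 Cdkn2a sites. That Cdkn2a site and the Cdkn2b site over the start were close, with 63.2% and 59.4% of the list weaker. With 1 library these cannot be told apart. The widths of the Cdkn2b sites, 750 bp to 1100 bp, were at or under the median of 1100 bp over all Suz12 sites.

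Cdkn2c, whose product p18 acts on Cdk4 and Cdk6 in many tissues, had 2 strong Suz12 sites. One (chr4:109337501-109340000) covered both annotated starts and had a p-value of 1.348e-161. The other (chr4:109329351-109331100) had a p-value of 1.166e-173 and covered the start of the lincRNA 9630013D21Rik, downstream of Cdkn2c on the same strand. The site of smallest p-value in the Cdkn2c window was thus centered 9569 bp from the outermost Cdkn2c start, at another gene. The 2 sites were close in strength, with 89.4% of the list weaker at the lincRNA and 88.4% over the starts. With 1 library they cannot be told apart.

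Cdkn2d, which encodes the INK4 protein p19, had no site in any of the 4 lists. The nearest Suz12 site was 20948 bp from its start, with a p-value of 2.159e-08, and the nearest Pcl3 site was 45903 bp away. Kri1, which starts within the Cdkn2d window, had no site over its start either. A site missing from a list shows that it did not pass the authors' selection, and not that Suz12 was absent.

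Ranked by the strongest site, the order of the 6 genes was Cdkn1c, Cdkn2a, Cdkn2c, Cdkn1a, Cdkn1b and Cdkn2b. Of the protein-coding genes with a Suz12 site, 92.7% had a weaker strongest site than Cdkn1c, 87.7% than Cdkn2a, 85.6% than Cdkn2c and 66.5% than Cdkn1a. Cdkn1b and Cdkn2b were near the middle, at 52.1% and 51.1%, where the median p-value of all these genes was 1.768e-36. With 1 library, the spread that would tell neighbours in this order apart is not known. The p-value was computed over each whole site, and the sites differed in width. The order is therefore one of p-values and not of binding levels. Both families spanned this order, with Cdkn1c and Cdkn2a near the top and Cdkn1b and Cdkn2b near the middle.

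**Figure D2:**
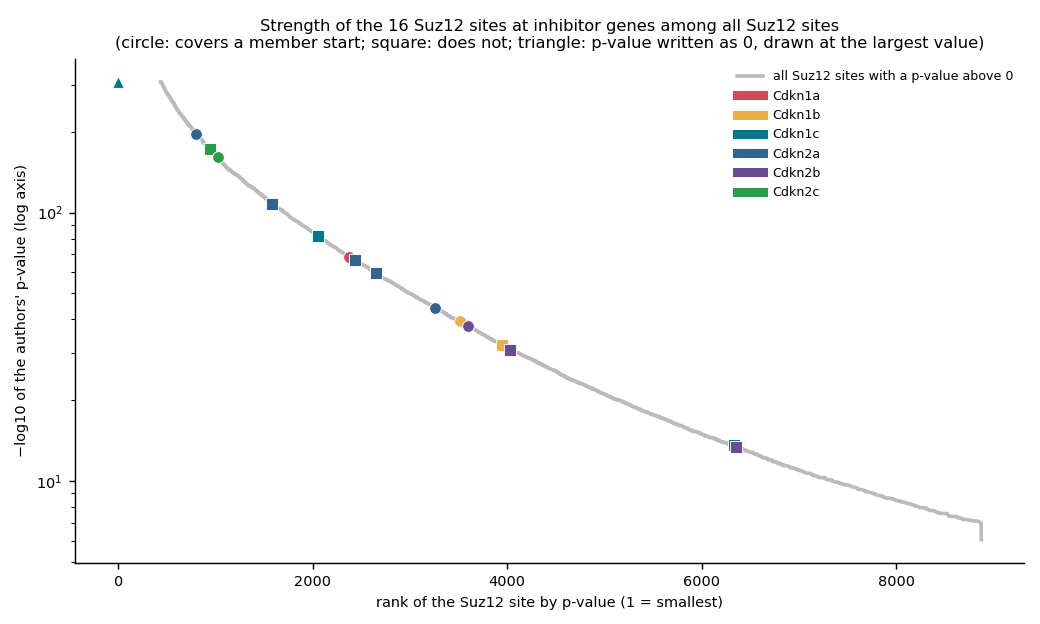
Strength of the 16 Suz12 sites at the inhibitor genes (colored markers), with the curve of all Suz12 sites that have a p-value above 0. The x axis is the rank by p-value, and the y axis is −log10 of the p-value on a log scale. Of the 8876 Suz12 sites, the 435 with a p-value written as 0 are not on the curve. The Cdkn1c site of that kind is drawn at the largest value. Sites of Cdkn1c, Cdkn2a and Cdkn2c lie toward the strong end, and the 2 weakest are 1 site each of Cdkn1c and Cdkn2b.

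To determine what Pcl3 knockdown did to Suz12 at these genes, the 16 sites were looked up in the Suz12-depleted list. All 16 were in it, whereas 64.5% of all Suz12 sites were. At the gene level, 6 of the 7 inhibitor genes had a Suz12-depleted site, against 20.7% of all protein-coding genes. Each of the 6 had all of its Suz12 sites in the depleted list, as did 56.2% of the protein-coding genes with a Suz12 site. The paper reports that Pcl3 knockdown also lowered Suz12 mRNA and protein, and proposes that this may account for part of the reduced binding. Its share at the inhibitor genes was not tested.

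Membership in the depleted list followed the strength of Suz12 binding over the whole list, from 2.47% in the weakest decile of sites (decile 1) to 100% in the strongest (decile 10). The sites of the inhibitor genes had 9 of their 16 in the 3 strongest deciles, where at least 99.7% of sites were depleted, and a further 5 in deciles 6 and 7, where 89.0% and 97.4% were. For these 14 sites the depleted share of like sites was therefore close to that of the inhibitor genes. The remaining 2, the Cdkn1c site of p-value 2.677e-14 and the Cdkn2b site of p-value 3.908e-14, were in decile 3, of which 28.7% was depleted. Both of these weak sites had a Pcl3 center within 2 kb, as had 19.3% of that decile. The weak Cdkn1c site shared no base with a Pcl3 site, however. The Pcl3 site near it (chr7:150650551-150651750) overlapped the stronger Suz12 site beside it (chr7:150650401-150652800).

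To learn whether H3K27me3 fell at the same genes, the H3K27me3-depleted list was searched. None of the 7 inhibitor genes had an H3K27me3-depleted site, compared with 3.13% of all protein-coding genes. Among the 6 with a Suz12 site the count was 0, against 10.5% of all such genes, and none of the 16 Suz12 sites had an H3K27me3-depleted center within 2 kb, against 7.37%. With so few genes and such low background shares, these counts are near the background and set the inhibitor genes apart in no way. The nearest H3K27me3-depleted site was 230577 bp from the outermost Cdkn1a start and 306407 bp from that of Cdkn2c, and at Cdkn2a it was 5776144 bp away. Of the 678 H3K27me3-depleted sites, 198 were on chromosome 11, which holds no inhibitor gene, and 153 were on the 5 chromosomes that do. The paper reports a widespread decrease of H3K27me3 on Pcl3 knockdown, smaller by ChIP-seq than by immunoblot. The list gives losses only, so a missing site does not show that the mark was kept at these genes. The level of H3K27me3 there is not known for either condition.

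Pcl3 sites were found at 4 of the 7 inhibitor genes, against 14.7% of all protein-coding genes, and these 4 were Cdkn1c, Cdkn2a, Cdkn2b and Cdkn2c. Among the 6 genes with a Suz12 site, 4 had a Pcl3 site, against 47.7% of all genes with one. The families differed in count, with 2 Pcl3 sites at 1 of 3 Cip/Kip genes and 19 at 3 of 4 INK4 genes. Of these 19, 15 were at the neighbours Cdkn2a and Cdkn2b, so most of the difference came from 1 locus.

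Cdkn1a and Cdkn1b were in the Suz12-depleted list without a Pcl3 site. Genes of this kind made up 37.9% of the protein-coding genes with a Suz12-depleted site, against these 2 of the 6 inhibitor genes. The nearest Pcl3 site was 146427 bp from the outermost Cdkn1a start and 510719 bp from the Cdkn1b start. Their 3 Suz12 sites were the only ones of the 16 with no Pcl3 center within 2 kb. The other 13 of 16 had one, compared with 44.9% of all Suz12 sites. That share was higher among stronger Suz12 sites, at 75.1%, 91.3% and 91.1% in deciles 8, 9 and 10. The inhibitor genes had 3 of 4, 3 of 3 and 2 of 2 there, close to like sites. In deciles 6 and 7 they had 2 of 3 and 1 of 2, against 38.0% and 55.5%. In decile 3 they had 2 of 2, against 19.3%. With so few sites per decile, an excess of Pcl3 beyond that of like sites cannot be judged.

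The strongest Pcl3 site at an inhibitor gene was at the far end of Cdkn2a (chr4:88917801-88923350), 5550 bp wide with a p-value written as 0. It spanned all 3 Suz12 sites there and the start of Gm12606. At the Cdkn2a starts, the Pcl3 site over the p16 start had a p-value of 2.701e-97 and that over the p19Arf start 4.080e-92. These 2 Pcl3 p-values were close, whereas the Suz12 p-values at the same starts were 5.413e-45 and 5.689e-198. The Pcl3 and Suz12 p-values come from different cell lines and libraries, so that they can be ordered only within a list.

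Cdkn1c had a Pcl3 site over its start with a p-value of 7.436e-170 and a weaker one upstream with 6.435e-33. Cdkn2c had Pcl3 sites of 9.440e-153 at the lincRNA start and 1.638e-61 over its own starts, where its Suz12 sites could not be told apart in strength. Cdkn2b was again the weakest, with its strongest Pcl3 site (1.862e-55) at the coding exon near the far end and 1.411e-23 over its start. At Cdkn2b, then, the smallest Pcl3 p-value was away from the start, whereas the smallest Suz12 p-value was over it. The Suz12 sites at the start and at the exon were close in strength, with 59.4% and 54.5% of the list weaker. With 1 library they cannot be told apart. The Pcl3 sites compared also differed in width, at 1900 bp at the exon and 1000 bp over the start.

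Pcl3 sites were more numerous and covered more bases than Suz12 sites at the INK4 genes Cdkn2a, Cdkn2b and Cdkn2c, whereas Cdkn2d had neither. Cdkn2a had 9 Pcl3 and 5 Suz12 sites, Cdkn2b 6 and 3, and Cdkn2c 4 and 2, whereas Cdkn1c had 2 and 3. Pcl3 sites covered 13907 bp of the Cdkn2a window against 7600 bp for Suz12, 5500 bp against 2800 bp at Cdkn2b, and 7300 bp against 4250 bp at Cdkn2c. Cdkn1c was the reverse, with 3800 bp under Pcl3 sites and 5555 bp under Suz12 sites. Thus at 3 of the 4 genes with both kinds of site Pcl3 covered more bases, compared with 17.2% of the protein-coding genes with both, and the same 3 of 4 had more Pcl3 than Suz12 sites, compared with 16.4%. These 3 genes are all on chromosome 4, where Pcl3 covered more bases at 16.1% of the 205 genes with both, a share close to that of all chromosomes. Cdkn2a and Cdkn2b are neighbours, so the 3 genes are not 3 separate loci. Counts of sites also depend on which windows were merged, as 1 Pcl3 site at the far end of Cdkn2a spanned 3 Suz12 sites.

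**Figure D3:**
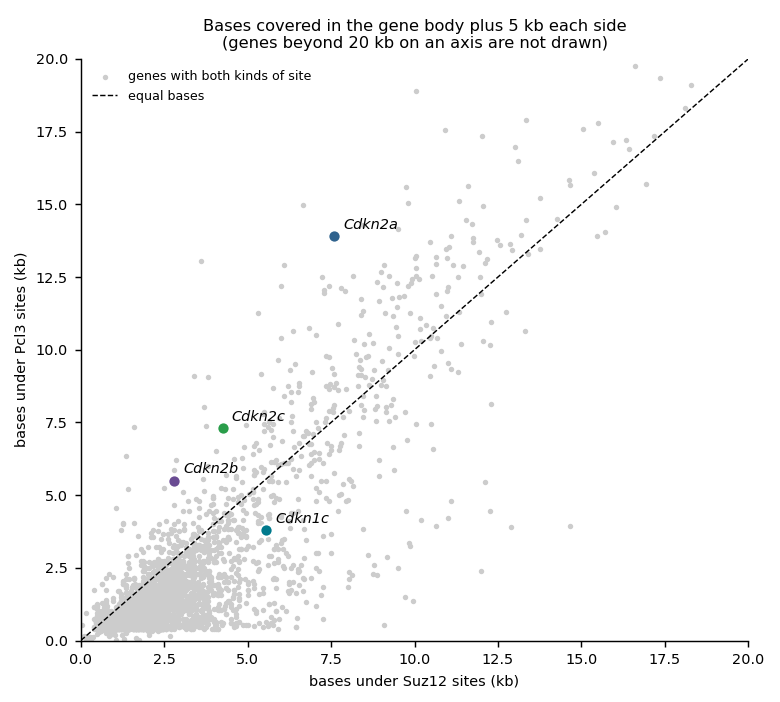
Bases under Pcl3 sites (y axis, kb) against bases under Suz12 sites (x axis, kb) in the windows of protein-coding genes with both kinds of site (gray). The 4 inhibitor genes that have both are in color, and a dashed line marks equal bases. Genes beyond the range of an axis are not drawn. Cdkn2a, Cdkn2b and Cdkn2c lie above the line and Cdkn1c below it, while most genes lie below.

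Many of these Pcl3 sites lay between the Suz12 sites. Of the 21 Pcl3 sites at the inhibitor genes, 11 shared a base with a Suz12 site, against 76.9% of all Pcl3 sites, and 15 had a Suz12 center within 2 kb, against 81.6%. The 10 that shared no base were 6 at Cdkn2a, 2 at Cdkn2b and 2 at Cdkn2c. In Cdkn2a, 3 of them lay in a row in the intron that follows the p16 start, between positions 88923451 and 88926450, with p-values of 7.566e-22, 3.076e-17 and 3.506e-28. In Cdkn2c, 1 was at the coding exon, with a p-value of 6.049e-31. The weakest were a site of 400 bp downstream of Cdkn2a with a p-value of 5.320e-08 and one of 400 bp in the Cdkn2b intron with 7.964e-08, both just under the authors' stated cutoff of 1e-07, which a few listed sites exceed.

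Cdkn2a and Cdkn2b are neighbours, 11640 bp apart, and were also taken as 1 block of 46565 bp from 5 kb beyond one gene to 5 kb beyond the other (chr4:88915377-88961941). This block held 8 Suz12 sites, all depleted, that covered 10400 bp or 22.3% of it. It held 15 Pcl3 sites that covered 20250 bp or 43.5%, and no H3K27me3-depleted site. Of the inhibitor genes' sites, 8 of 16 for Suz12 and 15 of 21 for Pcl3 were thus in this 1 block.

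CpG density was compared next, in 1000 bp around each start. The median over genes was 2.50 CpG per 100 bp with no Suz12 site, 5.80 with a Suz12 site and no Pcl3 site, and 6.70 with both. The 2 upstream Cdkn2a starts, 1 of them the p19Arf start shown above, at 10.8 and 10.7, and the Cdkn1c start at 10.6 were the CpG-richest inhibitor starts, above 94.7%, 94.4% and 94.1% of all protein-coding starts. Cdkn1b had 9.10, although no Pcl3 site was found there. Cdkn2b had 6.30 and the outermost Cdkn2c start 5.90, near the middle of the genes with both kinds of site.

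The second Cdkn1a start, under its Suz12 site, had 5.20 CpG per 100 bp, whereas the outermost start had 0.700 and the third 3.90. The p16 start, at 3.70, and the inner Cdkn2c start, at 3.80, were under both Suz12 and Pcl3 sites with fewer CpG than the median of all protein-coding starts, 4.10. Cdkn2d had 6.50, more than Cdkn2b and Cdkn2c, yet no site. CpG density thus did not order the inhibitor genes by their sites.

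**Figure D4:**
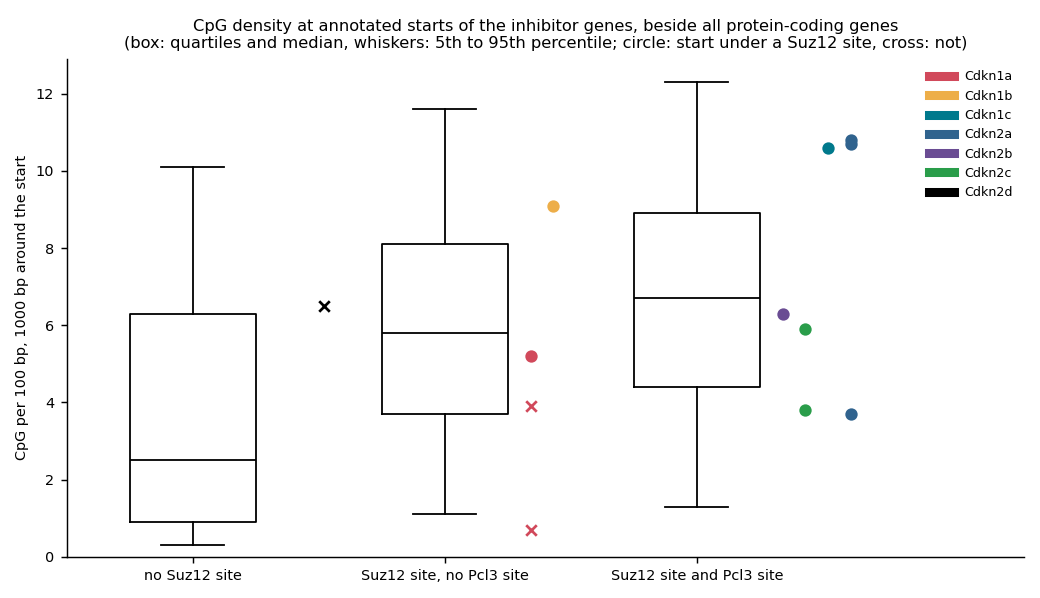
CpG per 100 bp in 1000 bp around annotated starts (y axis) for all protein-coding genes by class (boxes, quartiles and median, with whiskers from the 5th to the 95th percentile), with each start of the inhibitor genes beside the box of its gene's class. Circles are starts under a Suz12 site and crosses starts that are not; Cdkn2d lies above the upper quartile of the class with no Suz12 site, and the p16 start below the lower quartile of the class with both.

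Within the sites themselves, the 16 Suz12 sites of the inhibitor genes had a median of 4.36 CpG per 100 bp, below the 5.41 of all Suz12 sites. The 7 over an inhibitor start had a median of 7.05 and the 9 elsewhere 3.26. The hexamer GCGCGC, which reads the same on both strands, was in the central 500 bp of 5 of the 16 sites, or 31.2%, against 37.5% of all Suz12 sites. These 5 were the Cdkn1a site, both Cdkn1b sites, the p19Arf site and the site at the lincRNA beside Cdkn2c. The share of the inhibitor genes was near that of the whole list.

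The partners and targets of the inhibitors were examined as a list of 33 other cell cycle genes, the cyclins, cyclin-dependent kinases, pocket proteins, E2F factors, p53 pathway genes and other genes with Cdkn names. Of these, 11 had a Suz12 site, or 33.3%, close to the 28.8% of all protein-coding genes. A Suz12-depleted site was found at 8 of the 33, against 20.7% of all protein-coding genes. Pcl3 sites were at 7, against 14.7%, and H3K27me3-depleted sites at 0, against 3.13%. Of the 15 Suz12 sites of the listed genes 9 were depleted, near the 64.5% of the whole list.

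**Figure D5:**
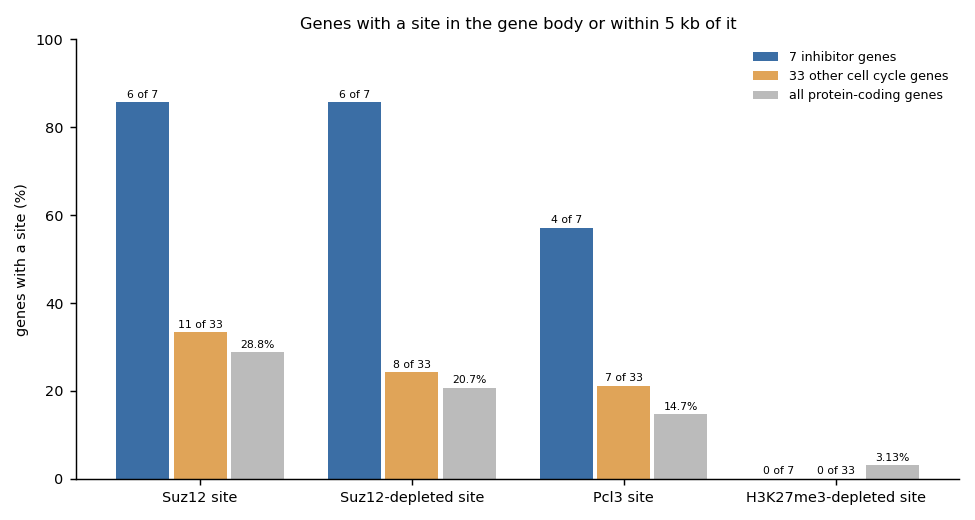
Percent of genes with a site of each list (y axis, from 0) for the 7 inhibitor genes, the 33 other cell cycle genes and all protein-coding genes, with counts above the bars. The inhibitor bars stand at 6, 6, 4 and 0 of 7, and the other cell cycle genes stay close to all genes.

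Cdk4 and Cdk6, which the INK4 proteins bind, were examined together with the D cyclins and Rb1. Cdk6 had 3 sites, 2 of them depleted, with a smallest p-value of 3.327e-37, and Cdk4 had none. Ccnd2, a D cyclin, had 1 Suz12 site and 2 Pcl3 sites, with the smallest p-value of each kind written as 0. Ccnd1 had 3 Suz12 sites, none depleted, of which the smallest p-value was 1.642e-17. Rb1, the pocket protein on which Cdk4 and Cdk6 act, had 1 depleted site of 1.474e-12.

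The E2F factors, released from the pocket proteins when these are phosphorylated, had 4 of 8 genes with a Suz12 site, against 28.8% of all protein-coding genes. E2f7 and E2f8, with p-values of 2.340e-14 and 1.191e-20, were depleted, and E2f2 and E2f6, with 6.214e-31 and 7.017e-14, were not. E2f2 fell in the same decile of strength as the 2 stronger Cdkn2b sites, which were depleted. Ccna1 (2.881e-35), Trp73 (written as 0) and Cdkn2aipnl (2.479e-14) each had 1 depleted Suz12 site. Both Ccna1 and Trp73 also had a Pcl3 site, as did Ccnd2, E2f6 and E2f7.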

How the data were processed

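Libraries were single-end 30-nt reads. The authors aligned them to mm9 with bowtie (version not given in the sources used here), kept unique alignments, scaled each pair of libraries to a common background, scanned them in windows of 400 bp by the Skellam distribution with a cutoff of 1e-07, and merged windows that overlapped, recomputing the p-value, and the largest p-values listed are 8.837e-07 for Suz12, 6.165e-07 for Pcl3 and 1.044e-06 for H3K27me3, above that cutoff. The 4 deposited lists carry a single p-value per site, the only measurement used here. Whether the 2 Pcl3-TAP libraries were pooled is not stated. Unique alignment leaves out repeated sequence, and equalized backgrounds assume equal copy number.

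Sites were overlapped with GENCODE vM1 genes (1 shared base, or centers within 2 kb, the study's rule), ranked by p-value with ties at the smallest rank, and divided into 10 parts by strength. Coordinates are 1-based. CpG was counted in the mm9 reference. Runs before 8 of the 12 annotated starts are shown, and the others are not reported here. Percentages over all genes or sites stand in place of tests, because no condition has more than 1 list. P-values of 0 were ranked first. The overlap functions were tested on simulated data. Python 3.11.15, numpy 2.4.6 and matplotlib 3.10.9 were used.

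The 7 genes and the cell cycle list were chosen with earlier results of these data known. Named were all 7 genes, cell cycle genes with a Suz12 site, and other genes that start in a window or in its sites. Alternatives were other windows, centers in place of shared bases, p-values of at most 1e-10 or 1e-12, other sets of genes, and other CpG windows.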

Additional observations from a re-analysis of the deposited data

How the results depend on the processing

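The number of inhibitor genes with a site was 6 for Suz12, 6 for Suz12 depletion, 4 for Pcl3 and 0 for H3K27me3 depletion with gene bodies only, with 2 kb or 10 kb on each side, within 2 kb of starts, with site centers in the window, and with p-values of at most 1e-10 or 1e-12, and the genes were the same in each. The count of Suz12 sites ranged from 7 near starts to 17 with 10 kb, and that of Pcl3 sites from 9 to 26. The background moved more: the share of all protein-coding genes with a site ranged from 21.7% to 32.1% for Suz12, from 15.4% to 23.1% for depletion, from 10.1% to 16.4% for Pcl3 and from 0.630% to 3.76% for H3K27me3 depletion over the same settings, gene bodies under 20 kb, and leaving out chromosome 11 or both sex chromosomes. Of the cell cycle genes, 10 had a Suz12 site at 1e-12, against 11 within 2 kb of starts and 11 with site centers in the window, and the other settings were not run for them. The median CpG density at the starts of the longest transcripts was 6.50 per 100 bp in 1000 bp, 7.20 in 500 bp and 4.95 in 2000 bp. No paired analysis was possible because each condition has 1 library or 1 list and no result comes from a test over samples. The lists limit what can be said: there are no read counts, no size of a loss, and no levels at genes below the threshold.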
